A study of Mus musculus with 35 samples.

Results

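Chromatin accessibility was compared between mouse embryonic fibroblasts treated with Forskolin and fibroblasts treated without it. The members were the 6 treatments 6FAE, CFAE and C6FAE, whose labels hold the letter F for Forskolin, and AE, Basal and C6AE, whose labels do not. Each treatment had 2 ATAC-seq libraries, so the comparison used 12 of the 14 ATAC-seq libraries and 12 of the 35 samples of the series. The 2 libraries of cells labelled as Control were left out of the comparison and served only as a reference. All libraries came from day 4 of chemical reprogramming of fibroblasts of ICR mouse embryos, a mixed primary culture and not a cloned line. In the treatment names, C is CHIR99021, an inhibitor of the kinase GSK3, and 6 is the ALK5 inhibitor RepSox. A is AM580, an agonist of a retinoic acid receptor, and E is EPZ004777, an inhibitor of the histone methyltransferase DOT1L. CFAE therefore lacked compound 6, 6FAE lacked CHIR99021 and C6AE lacked Forskolin. The sources used here do not define AE or Basal for this assay, and AE was taken only as the letters read. By these letters C6FAE and C6AE differ in Forskolin alone, whereas AE and Basal also lack CHIR99021 and compound 6. In the 5 treatments other than Basal the letters A and E are shared.

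Forskolin is a plant diterpene that activates adenylyl cyclase and raises cyclic AMP. Cyclic AMP activates protein kinase A, which phosphorylates the transcription factor CREB, and CREB then recruits coactivators to promoters and enhancers. In ATAC-seq a transposase inserts adapters into DNA that is not covered by nucleosomes, so reads pile up at active promoters and enhancers. H3K4me3 is the histone mark of active promoters, and H3K27me3 is the mark set by Polycomb complexes at repressed genes.

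The authors' table gave RPKM, a read number divided by the length of the bin and by the size of the library, for 36431 regions, with 1 column per treatment merged over its libraries. Values were taken as log2(RPKM + 1) and each column was centred on its median, since the column medians ranged from 12.2 RPKM in C6AE to 18.5 RPKM in CFAE. The regions were in the mm9 build and were not joined to genes, because no annotation of that build was used here. Fibroblast identity was therefore not checked against marker genes. Replicates were compared through the authors' peak lists, 1 per library. Total tags ranged from 4960248 to 8764791 in the 6 libraries with Forskolin and from 3346418 to 7337786 in the 6 without.

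A pair of libraries stood apart from the rest. The peak score of a region, the log2 of its length-weighted mean fold enrichment, was correlated across 36431 regions, which share the same bins, region lengths and base composition in every library. The library 6FAE replicate 1 had r = 0.249 with its own replicate, 0.256 to 0.290 with the libraries of the other Forskolin treatments and 0.30 to 0.349 with the libraries without Forskolin. The library C6AE replicate 2 had r = 0.219 with its own replicate and at most 0.30 with any other of the 12. For C6AE replicate 1 the median r was 0.425 with the libraries with Forskolin and 0.351 with those of AE and Basal. In the other 4 treatments both replicates correlated at 0.405 to 0.512. The libraries 6FAE replicate 1 and C6AE replicate 2 also had the fewest enriched peaks. The fits by peak score are therefore also given without them, and the difference in enriched peaks without each. Recurrence between replicates is also given without the treatments 6FAE and C6AE. Other counts and shares of regions by library use all 12.

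Enriched peaks, those listed with a −log10 q of at least 1.3, differed widely between the replicates of some treatments, most in 6FAE and C6AE. Their number was 1027 and 13337 in 6FAE, 8537 and 13723 in CFAE, and 15909 and 5567 in C6FAE. Without Forskolin, AE had 7048 and 5174, Basal had 6708 and 7313 and C6AE had 3810 and 810. The range with Forskolin, 1027 to 15909, held nearly the whole range without it, 810 to 7313. The 4 highest counts, from 8537 to 15909, were all in libraries with Forskolin. Averaged per treatment on the log2 scale, the number was 12.82 ± 0.84 with Forskolin and 12.04 ± 1.10 without (SD, n = 3 treatments each). The difference of 0.78, a 1.72-fold higher number with Forskolin, was within this spread (p = 0.5, two-sided exact permutation test over the 6 treatments, which cannot go below 0.1). Among the replicate 1 libraries alone the difference was -0.12, and among the replicate 2 libraries 1.69 (exact permutation p = 0.2). It was 1.40 without the library 6FAE replicate 1, 0.17 without 6FAE replicate 2 and 0.41 without C6AE replicate 2, and scaled to tags it was 0.51. Exact permutation p was 0.1 without 6FAE replicate 1, the lowest value possible here. Exact permutation p was 0.9 without 6FAE replicate 2 and 0.6 without C6AE replicate 2. Control had 3040 and 1982 enriched peaks.

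**Figure D1:**
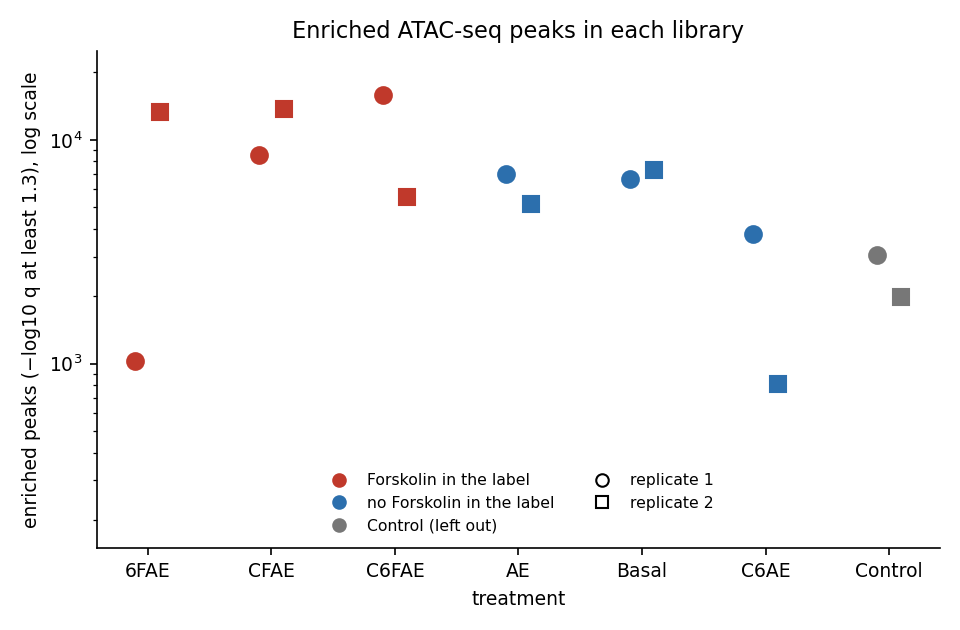
Number of enriched peaks (−log10 q of at least 1.3, log axis) in each ATAC-seq library, by treatment, with circles for replicate 1 and squares for replicate 2. The replicates of 6FAE lie at 1027 and 13337, the widest gap within a treatment.

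No region passed the test of the difference between the treatments with and without Forskolin. In limma, with the 6 treatments as units and Benjamini-Hochberg adjustment over 36431 regions, 0 regions were called at an adjusted p under 0.05, a background of 0.0%, and the smallest adjusted p was 0.178. At an unadjusted p under 0.05, 2272 regions (6.24% of all) were higher with Forskolin and 2141 (5.88%) were lower. Leaving out the treatment C6AE gave 20 regions higher and 1 lower at an adjusted p under 0.05, and leaving out any other treatment gave 0. Each treatment was a single unit in this fit, so the error is the spread between treatments that also differ in the other chemicals. By the letters, CHIR99021, compound 6, A and E were each more frequent with Forskolin than without. The difference between the sides therefore also holds any difference due to these chemicals. With terms for CHIR99021 and compound 6 added, but none for A and E, 0 regions were called and 1714 and 1836 regions had an unadjusted p under 0.05.

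The peak score, which keeps the libraries of a treatment apart until they are averaged, gave the same count in limma: 0 regions at an adjusted p under 0.05 (0.0% of all), with 1451 higher (3.98%) and 2471 lower (6.78%) at an unadjusted p under 0.05. The smallest adjusted p was 0.0701. Scored from enriched peaks only, the balance turned, with 0 regions called and 2076 higher and 10 lower at an unadjusted p under 0.05. This score depends on the number of enriched peaks per library, whose median was 10937 with Forskolin and 5941 without. The part of these unequal numbers in the balance was not tested. Without the library 6FAE replicate 1, 30 regions were higher and 11 lower at an adjusted p under 0.05, and without CFAE replicate 2 there was 1 higher. Without both libraries that stood apart, the averaged scores gave 0, and the 10 libraries with treatment as a random block gave 30 higher and 17 lower. In that block fit the correlation between libraries of a treatment was estimated at -0.0074. The libraries therefore entered it almost as independent units, which they are not. Across regions the difference in peak score and the difference in RPKM correlated at r = 0.877 (n = 36431), as both come from the same reads.

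**Figure D2:**
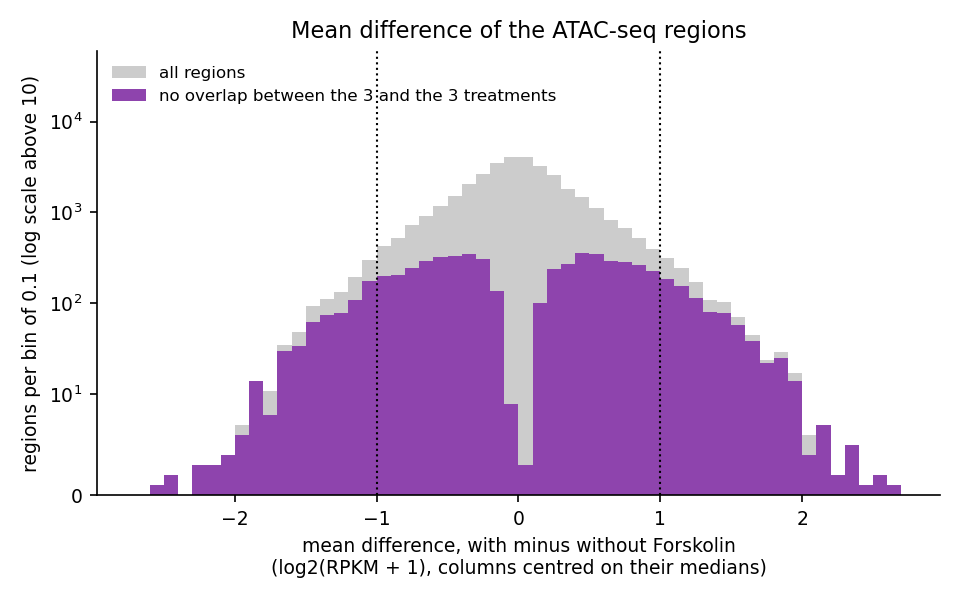
Number of regions (grey, all 36431) by the mean difference in log2(RPKM + 1) with minus without Forskolin, in bins of 0.1 and with counts on a log scale above 10. Purple marks regions whose 3 values with Forskolin do not overlap the 3 without, and the dotted lines stand at -1 and 1.

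Most regions had differences below 2-fold, and the spread was similar in both directions. The mean difference in log2(RPKM + 1) had its 5th percentile at -0.82 and its 95th at 0.85, with a 1st percentile of -1.27 and a 99th of 1.35. All 3 treatments with Forskolin lay above all 3 without in 3189 regions (8.75%), and all 3 lay below in 3002 regions (8.24%). A mean difference of at least 1, or 2-fold, was also met by 798 regions that were higher with Forskolin (2.19%) and by 604 regions that were lower (1.66%). These are called the 798 higher and the 604 lower regions from here on. They were chosen by size and separation and none passed the adjusted test, so they are described without a test. The balance between the directions rested on the centring. Without centring, which moved the median difference to 0.21, 5635 regions were higher and 817 lower, so that the higher share of the separated regions went from 51.5% to 87.3%. Under quantile normalization 53.9% and after centring on the most open regions 58.8% were higher.

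C6FAE had the largest distance from the other side in these regions, and C6AE the smallest in the 798 higher regions. In the 604 lower regions the median differences on the centred scale were -0.90 to -1.13 for 6FAE and -0.90 to -1.35 for C6AE. The RPKM values below are not centred. In the 798 higher regions, the median RPKM was 14.6 in 6FAE, 19.3 in CFAE and 22.7 in C6FAE, against 5.27 in AE, 5.52 in Basal and 6.4 in C6AE. C6FAE was the highest of the 3 Forskolin treatments in 479 of the 798 regions. C6AE was the highest of the 3 treatments without Forskolin in 498 of them (62.4%), although it was the highest in 38.0% of all regions. In the 604 lower regions the median RPKM was 6.80 in 6FAE, 7.56 in CFAE and 6.07 in C6FAE, against 19.2 in AE, 16.0 in Basal and 12.1 in C6AE. Here C6FAE was the lowest Forskolin treatment in 294 regions (48.7%), and AE was the highest without Forskolin in 250 (41.4%). Over all regions these shares were 34.2% and 32.5%.

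The pair that differs in Forskolin alone, C6FAE and C6AE, had the smallest spread of the 3 comparisons that used C6FAE and the largest of the 3 that used C6AE. Over all regions, 2146 (5.89%) were at least 2-fold higher in C6FAE than in C6AE and 3177 (8.72%) at least 2-fold lower. C6FAE against AE gave 3941 higher and 3531 lower, and C6FAE against Basal gave 3016 higher and 3817 lower. The SD of the difference over regions was 0.730 for C6FAE against C6AE, 0.847 against AE and 0.797 against Basal. Against C6AE it was 0.643 for 6FAE and 0.693 for CFAE. Within the treatments without Forskolin, the SD over regions was 0.787 for AE against C6AE and 0.642 for AE against Basal, where the Forskolin treatments differed from AE with an SD of 0.723 to 0.847. Each of these comparisons used 1 merged column per treatment and has no replicate check. Of the 798 higher regions, 467 (58.5%) were at least 2-fold higher in C6FAE than in C6AE, and of the 604 lower regions 427 (70.7%) were at least 2-fold lower, values that the choice of the regions used. For 6FAE against C6AE, which also differ in CHIR99021, the numbers were 288 (36.1%) and 274 (45.4%).

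The columns with Forskolin resembled each other. Across 36431 regions, which share bins and base composition, their pairs had r between 0.634 and 0.693. AE and Basal had r = 0.670. C6AE correlated at 0.494 with AE and 0.482 with Basal, and at 0.509 to 0.543 with the Forskolin columns. The 9 pairs of 1 treatment with and 1 without Forskolin ranged from 0.415 to 0.568.

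The 10 regions with the largest separated difference in each direction, outside the sequences left out, carry the values behind these counts. Among the sequences left out, 2 higher regions had larger differences, 2.58 and 2.67. The first higher region, chr2:14882521-14883034 (514 bp), had 17.0 RPKM in 6FAE, 27.2 in CFAE and 34.7 in C6FAE. In AE, Basal and C6AE the same region had 1.03, 8.14 and 2.15 RPKM, and in Control 8.34. The mean difference was 2.54 ± 0.55 (SE) on the log2(RPKM + 1) scale, with an adjusted p of 0.221 in limma. All 6 libraries with Forskolin had a listed peak in it and none of the 6 without did. The second, chr2:52905863-52906588 (726 bp), had 15.0, 25.5 and 26.2 RPKM in 6FAE, CFAE and C6FAE. It had 0.814 in AE, 4.93 in Basal and 3.54 in C6AE, and Control had 1.68. A peak was listed in 5 of the 6 libraries with Forskolin, all but 6FAE replicate 1, and in 1 without.

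The third higher region, chr5:46293776-46294975 (1200 bp), had 18.2, 26.7 and 17.3 RPKM in the same order, against 0.773, 2.40 and 6.48 in AE, Basal and C6AE. Its peak was listed in 6 libraries with Forskolin and in 1 without. The region chr14:99049343-99050927 (1585 bp), the longest of the 10, had 14.7, 23.5 and 31.1 RPKM with Forskolin against 2.19, 1.05 and 8.07 without. Here C6AE again held the highest value without Forskolin. The region chr6:98643397-98644005 (609 bp) had 19.2, 16.3 and 31.8 RPKM against 2.44, 4.04 and 3.07, and its SE of 0.44 was the smallest of the 10 higher regions. The remaining higher regions were chr11:38483703-38484319, chr7:141145765-141146274, chr13:111627056-111627585, chr15:58009004-58009662 and chr2:69226411-69227176. The 10 mean differences ran from 2.19 to 2.54 with SE from 0.44 to 0.71, and the adjusted p from 0.221 to 0.261.

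The 10 lower regions were of like size. The region chr5:33367194-33368187 (994 bp) had 2.21, 2.99 and 2.36 RPKM in 6FAE, CFAE and C6FAE against 14.5, 15.0 and 16.7 in AE, Basal and C6AE. The 3 values of each side were close together, Control had 6.26, and the difference was -2.44 ± 0.48 (SE). All 6 libraries without Forskolin and 1 with it had a listed peak there. The region chr16:90218075-90218744 (670 bp) had 4.81, 3.1 and 4.21 RPKM with Forskolin against 23.3, 15.8 and 20.2 without, with a difference of -2.26 ± 0.41 and the smallest SE of these 20 regions. Peaks were listed in 5 libraries without Forskolin and 2 with it. The region chr16:57328992-57330217 (1226 bp) had 6.85, 1.70 and 3.13 RPKM against 27.7, 13.6 and 13.3, and Control had 13.8. In this region Control was at the level of Basal and C6AE.

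The largest difference among the lower regions, -2.58 ± 0.73, was in chr1:132435984-132436555, with 0.905, 0.160 and 1.96 RPKM against 6.34, 12.5 and 7.97. Only 3 of the 6 libraries without Forskolin had a listed peak in it. In chr2:160832293-160832793 the difference of -2.42 ± 0.78 rested on C6AE (16.0 RPKM) more than on AE (3.51), and 1 library had a listed peak. The remaining lower regions were chr7:130409141-130409702, chr2:142939633-142940367, chr12:3767236-3767760, chr6:45323725-45324330 and chr4:137784152-137784659. Their differences and those above ran from -2.58 to -2.08, with adjusted p from 0.221 to 0.294. None of the 20 regions overlapped a region of H3K4me3 or H3K27me3.

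**Figure D3:**
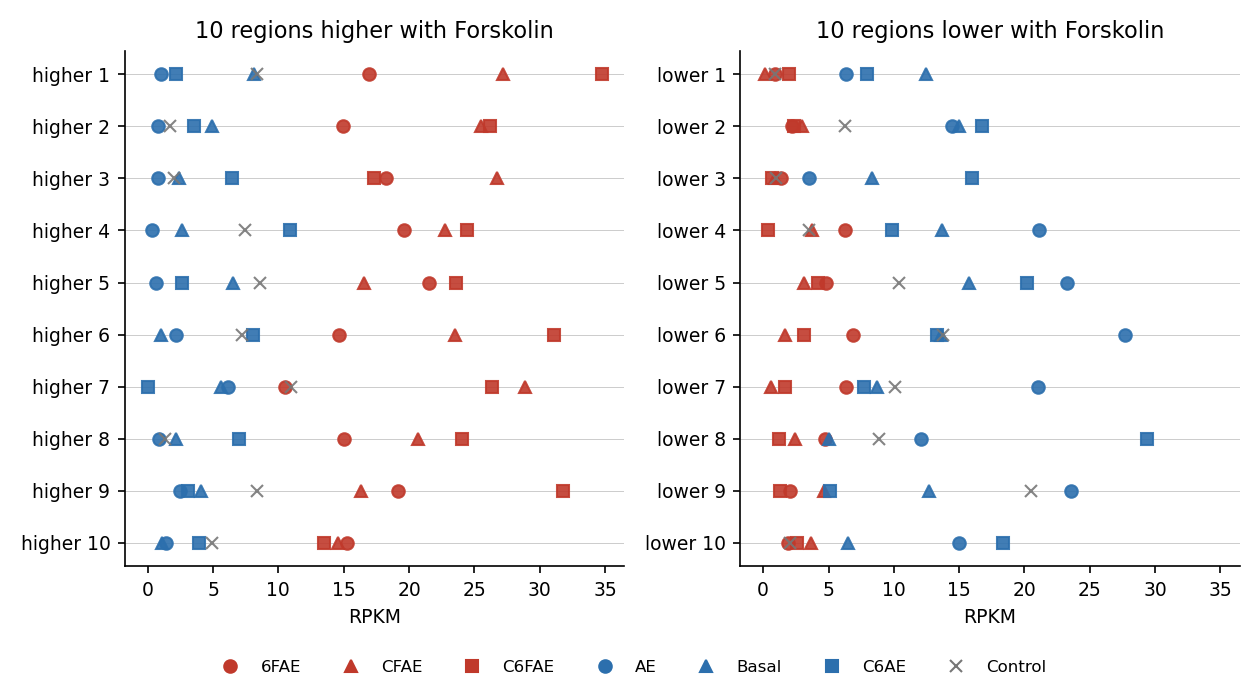
RPKM of the 10 higher and the 10 lower regions in the merged column of each treatment, with red for Forskolin, blue for treatments without it and a grey cross for Control. In all 20 regions the 3 red and the 3 blue values do not overlap, and Control lies at 8.62 RPKM or less in 9 of the 10 higher regions.

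The peak lists show the same regions library by library. They come from the same reads as the RPKM table, so they show which libraries carry the differences and are not independent of it. Only the 20000 highest peaks of a library were counted, ranked by −log10 p and called top peaks here, so that every library entered with the same number. The 798 higher regions departed from the share over all 36431 regions mainly in the libraries without Forskolin. With Forskolin, a top peak was present in 51.5% of them in 6FAE replicate 2 (46.7% of all regions), in 40.2% and 31.3% for CFAE (40.7% and 45.1%) and in 56.1% and 34.8% for C6FAE (47.5% and 35.1%). These 5 libraries held the higher regions about as often as, or less often than, regions at large, apart from C6FAE replicate 1 and 6FAE replicate 2. In 6FAE replicate 1 the share was 3.13%, against 21.0% of all regions. Without Forskolin it was 0.877% and 1.13% for AE (38.5% and 34.1% of all regions), 1.25% and 1.13% for Basal (37.5% and 38.7%), and 9.52% and 1.13% for C6AE (32.0% and 21.1%). The share in 6FAE replicate 1 lay within the range of the libraries without Forskolin, and C6AE replicate 1 held more than the other 5 of its side.

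The 604 lower regions had their low shares in the libraries with Forskolin. A top peak was present in 0.993% to 4.30% of them with Forskolin, where 21.0% to 47.5% of all regions held one. Without Forskolin the share was 40.2% and 27.8% for AE, 34.1% and 32.8% for Basal, and 12.7% and 18.5% for C6AE, above the share over all regions only in AE replicate 1. All 6 libraries of a side lay apart from all 6 of the other, 6FAE replicate 1 (3.15%) included. With all listed peaks, however weak, 389 of the 798 higher regions (48.8%) had a peak in every one of the 6 libraries with Forskolin, less than the 65.9% of all regions that did. Of the 604 lower regions 224 (37.1%) had one in each of the 6 without Forskolin, against 51.0% of all regions. Regions where 5 or more of the 6 libraries with Forskolin had a top peak and none without did numbered 121 (0.332% of all). In the reverse direction there were 15 (0.0412%). The base rates were unequal, as up to 47.5% of all regions held a top peak in a library with Forskolin and up to 38.7% in one without. With all listed peaks the numbers were 30 (0.0824%) and 10 (0.0275%).

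**Figure D4:**
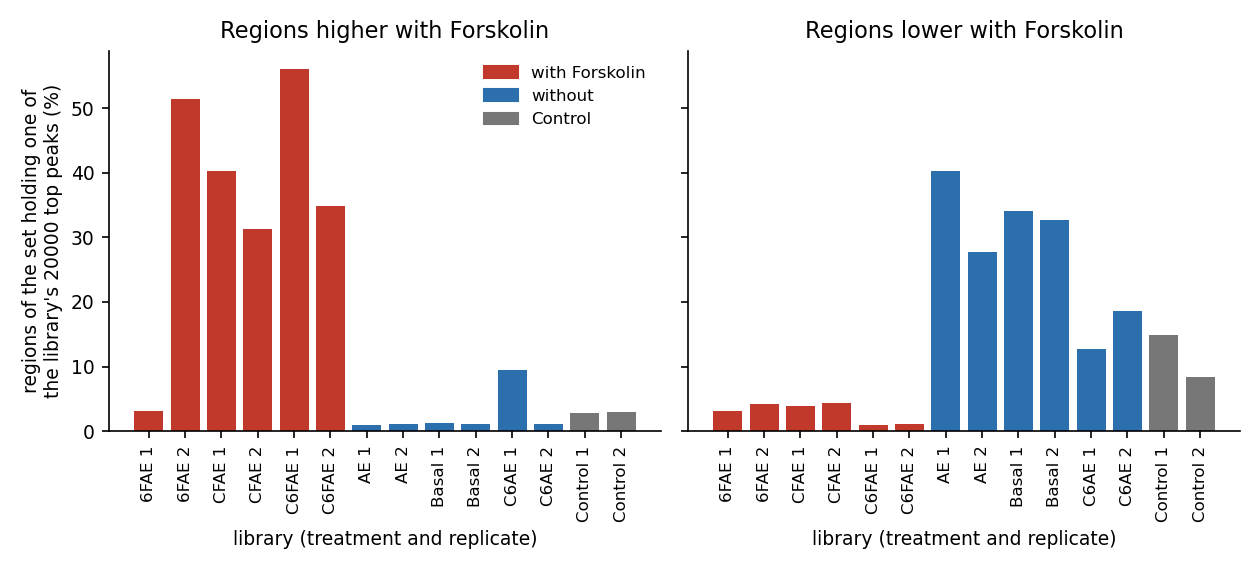
Percentage of the 798 higher (left) and the 604 lower (right) regions that held one of the 20000 highest peaks of each library, by treatment and replicate. On the left 6FAE replicate 1 is at 3.13%, below the 31.3% to 56.1% of the other libraries with Forskolin, and on the right the 6 libraries without Forskolin lie at 12.7% or above.

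Replicates gave a check that the choice of regions had not used. Regions with a top peak in at least 2 of the 3 replicate 1 libraries with Forskolin and in none without numbered 1658. In replicate 2, 43.8% of them (95% Wilson interval 41.5 to 46.3%) again had a top peak in at least 2 of the 3 libraries with Forskolin, near the 39.3% of all regions that did. In at least 2 of the 3 libraries without Forskolin it was 13.0% (11.5 to 14.7%), below the 27.4% of all regions. These intervals reflect counting of regions alone, and regions of one genome are no replicates. By library, the share was 53.3% for 6FAE, 44.3% for CFAE and 38.3% for C6FAE, where 46.7%, 45.1% and 35.1% of all regions held a top peak. It was 20.3% for AE, 23.3% for Basal and 12.4% for C6AE, where 34.1%, 38.7% and 21.1% of all regions did, and 13.2% for Control against 23.7%. For this choice, what recurred was therefore mainly the low share without Forskolin. Chosen in replicate 2, 2916 regions were found in 39.3% (37.6 to 41.1%) with Forskolin and 20.5% (19.1 to 22.1%) without, against 33.8% and 31.8% of all regions. Replicate 1 of 6FAE held 9.95% of them, while CFAE held 48.9% and C6FAE 61.2%, against 21.0%, 40.7% and 47.5% of all regions.

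Regions chosen for peaks without Forskolin also recurred mainly through low shares on the other side. Of the 1243 chosen in replicate 1, 24.5% (22.2 to 26.9%) were found in at least 2 of the 3 libraries without Forskolin and 24.9% (22.5 to 27.3%) in at least 2 of the 3 with it. Over all regions these shares were 27.4% and 39.3%, so the base rates of the sides were unequal. Of the 752 chosen in replicate 2, 25.1% (22.2 to 28.3%) were found on their own side and 13.2% (10.9 to 15.8%) on the other, against 31.8% and 33.8% of all regions. The libraries of C6AE held few of either group, at 10.9% and 16.8%, against 21.1% and 32.0% of all regions. Without 6FAE and C6AE, with a peak required in both CFAE and C6FAE or both AE and Basal, 32.5% of regions chosen in replicate 1 with Forskolin were found again on their side and 12.5% on the other, against 26.6% and 23.2% of all regions. Among those chosen without Forskolin the shares were then 25.3% and 9.85%, against 23.2% and 26.6%. Chosen in replicate 2 with Forskolin, 45.6% were found on their side and 13.3% on the other, against 30.4% and 23.9% of all regions. There the own side was also above the share over all regions. Chosen in replicate 2 without Forskolin, the shares were 28.0% and 17.2%, against 23.9% and 30.4%.

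Control had no part in the choice of the regions. The choice took values of the 2 sides that lay apart, so the position of Control relative to them still depends on it. Control was closer to the mean of the treatments without Forskolin than to the mean of those with it in 559 of the 798 higher regions (70.1%) and in 396 of the 604 lower regions (65.6%), compared with 55.8% of all regions. It lay below all 3 Forskolin treatments in 83.5% of the higher regions and above all 3 in 71.2% of the lower regions. Over all regions these shares were 29.45% and 36.8%. In 37.6% of the higher regions Control also lay above all 3 treatments without Forskolin, and in 46.5% of the lower regions below them. The shares over all regions were 31.7% and 24.4%. In the higher regions the median of Control was 5.41 RPKM, and on the centred log2 scale it was -0.98, between C6AE (-0.83) and Basal (-1.25). In the lower regions it was 9.33 RPKM and -0.29 centred, between the 2 sides. Control has the lowest column median of the 7, 11.6 RPKM, and its libraries had few enriched peaks.

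The higher and lower regions were short and nearly without H3K4me3. Averaged over the 6 treatments their signal was low, with medians of 12.4 and 11.47 RPKM against 15.55 for all regions. The choice of the regions requires a low level on 1 side. On the other side their medians were about at or above those of all regions. In C6FAE the higher regions had 22.7 RPKM against 17.7, and in AE the lower regions had 19.2 against 16.4. The median length was 930 bp for the higher and 779 bp for the lower regions, against 1479 bp for all regions. Of the higher regions 1.63% (13 of 798) overlapped an H3K4me3 region, and of the lower regions 1.49% (9 of 604), while 31.2% of all 36431 regions did. By size of difference, the share was 47.7% for regions with an absolute difference under 0.25, 25.5% for 0.25 to 0.5, 7.33% for 0.5 to 1 and 1.23% for 1 or more. Regions in an H3K4me3 region were longer, with a median of 2870 bp against 1087 bp outside, and had a higher signal, with a median RPKM over the 6 treatments of 19.7 against 13.7. The SD of their difference was 0.245 against 0.571. Among regions in neither group that were shorter than the median and below the median RPKM, 3.46% overlapped H3K4me3. Length and signal moved with the share, and their part in it was not tested further.

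**Figure D5:**
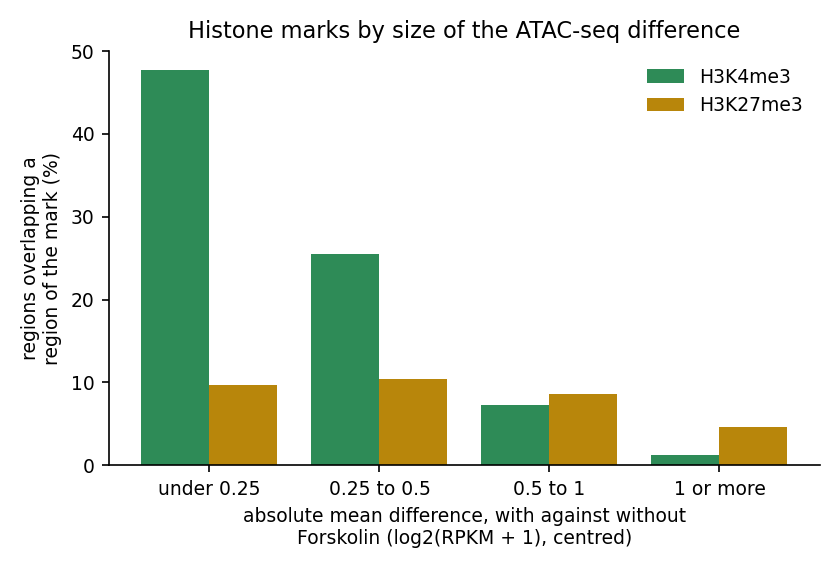
Percentage of ATAC-seq regions that overlap a region of H3K4me3 (green) or H3K27me3 (ochre), by the absolute mean difference in log2(RPKM + 1) with against without Forskolin. The share with H3K4me3 goes from 47.7% at a difference under 0.25 to 1.23% at 1 or more, and that with H3K27me3 from 9.73% to 4.57%.

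H3K27me3 overlapped 4.76% of the higher and 3.97% of the lower regions, against 9.37% of all regions. Among all regions without overlap between the sides, 9.88% of the 3189 higher and 5.26% of the 3002 lower regions overlapped this mark. The marks were measured in 1 library per treatment, separate from the ATAC-seq libraries, with as few as 745089 tags (H3K4me3, C6AE) and 633980 tags (H3K27me3, 6FAE). The differences between the sides in the separated regions were within the spread between treatments. In the 762 separated higher regions with H3K4me3, the median centred log2 level of the mark was 0.012 ± 0.071 with Forskolin and 0.000 ± 0.10 without (SD, n = 3 treatments, exact permutation p = 1). In the 724 lower regions it was -0.067 ± 0.040 against -0.033 ± 0.067 (exact permutation p = 0.5). For H3K27me3 the medians were 0.036 ± 0.089 against 0.007 ± 0.099 in 315 higher regions (p = 0.8 by exact permutation), and -0.065 ± 0.061 against -0.065 ± 0.086 in 158 lower regions (p = 1 by exact permutation). All 4 adjusted p were 1, and this design cannot give a p below 0.1.

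The regions were spread over the genome. On the autosomes and X, the share of regions among the 798 higher ones ran from 1.45% on chromosome 11 to 3.35% on chromosome 14, and among the 604 lower ones from 0.602% on chromosome X to 2.29% on chromosome 3. The gap between neighbouring higher regions had a median of 1.74 Mb and that between neighbouring lower regions 2.55 Mb. Neighbours less than 0.1 Mb apart made up 61 of 778 gaps among the higher regions and 13 of 584 among the lower.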

How the data were processed

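ATAC-seq libraries were sequenced by the authors on day 4, and the submitters' processing notes name Bowtie2, MACS2, deepTools 3.1.0 and the mm9 build. For each library the authors called broad peaks in MACS 2.1.2 with a p-value of 0.05 as the threshold, with tags of 150 bp extended to 250 bp, without control library or local background. The deposited lists give −log10 p, −log10 q and fold enrichment, a ratio over the background that MACS modelled. Their headers state that q was not calculated, yet the column holds values, used here as listed. The deposited RPKM tables hold 1 column per treatment, merged over replicates for ATAC-seq by the authors, and 2 columns of the ChIP-seq tables were not used because the labels of their samples conflict.

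From these, log2(RPKM + 1), with a pseudocount of 1, was centred on column medians and tested with limma 3.58.1 (R 4.3.3, trended eBayes, Benjamini-Hochberg). The 36431 regions were the authors' and no filter on low values was applied. Peaks and marks overlapped a region by at least 1 bp. Shares have 95% Wilson intervals for counting error only, and no molecular identifiers separate reads from molecules. The study calls the replicates biological, and the number of the first Basal replicate follows accession order. The fits were run on simulated data with planted changes larger than most differences seen here. That run checks the code and does not bear on the number of regions called. Named regions are the 10 with the largest mean difference per direction among regions without overlap, as fewer than 10 passed the adjusted test, leaving out 1 autosome, random and mitochondrial sequences. The regions, thresholds and lists were chosen with earlier results of these data known. The planned gene lists, cell type markers and motifs need a genome of the files' build and were not analysed here. Alternatives changed the scaling, pseudocount, filter, peak threshold, covariates and libraries. Tables, intervals and permutation tests used scipy 1.17.1 and pandas 2.3.3 under Python 3.11.15, and figures matplotlib 3.10.9.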

Additional observations from a re-analysis of the deposited data

Results flagged for a closer look

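Among the 6 libraries without Forskolin, C6AE replicate 2 had far fewer enriched peaks than the others, with a log2 number of 9.66 (810 peaks) against at least 3810 peaks in the other 5. Its gap to the nearest library was larger than Dixon's test allows at the 95% level for 6 values (0.704 of the range). Among the same libraries, C6AE replicate 1 had the highest share of the 798 higher regions with a top peak, 9.52% against at most 1.25% in the other 5 (0.957 of the range). The 798 regions were chosen from merged columns that hold these libraries, so the limit does not hold for this share. These were 2 of the 8 groups and measures looked at. Chance gives such a result in about 1 group of 20 for independent values, which libraries of the same treatment are not. The library 6FAE replicate 1, with 1027 enriched peaks, was just inside the limit at 0.617 of the range.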

How the results depend on the processing

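The number of regions called by limma stayed at 0 in both directions under every scaling, pseudocount, filter and covariate tried on RPKM, with 20 higher and 1 lower only without the treatment C6AE (range over treatments left out 0 to 20 and 0 to 1). The smallest adjusted p over the fits of RPKM ran from 0.0440 to 0.684. Calling by separation and a 2-fold mean difference instead gave 798 and 604. By peak score the calls ran from 0 to 30 higher and 0 to 11 lower over libraries left out, and 10 libraries with treatment as a random block, chosen after seeing the data, gave 30 and 17. That block had an estimated correlation of -0.0074, so its libraries counted almost as independent units. The cause of these changes was not tested.

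Separated regions numbered 5635 higher and 817 lower without centring, and 1711 and 234 of them passed 2-fold. A pseudocount of 10 left 30 and 20 past 2-fold, as it shrinks low values by construction, and a filter on low RPKM left 448 and 269 of 27323 regions. Leaving out 1 treatment, which makes separation easier by construction and was chosen after seeing the data, gave 4488 to 6461 higher and 4339 to 6068 lower, with 758 to 1790 and 654 to 1300 past 2-fold. The direction of the 20 named regions was fixed by their choice, so its stability was not assessed.

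Replicate numbers did not pair the libraries. Same-numbered libraries had deviations correlated at -0.301 to 0.114 and others at -0.281 to 0.128. The replicate block left 0 regions called by peak score, with 1706 higher and 2396 lower at an unadjusted p under 0.05, and the difference in log2 enriched peaks was -0.123 within replicate 1 and 1.69 within replicate 2. Over libraries left out that difference ran from 0.165 to 1.40, and it was 0.093 with every listed peak and 1.49 with the stricter −log10 q minimum of 5.

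The share of regions recurring on their own side moved with the peak set. Chosen in replicate 1 with Forskolin it was 40.6% with 10000 peaks, 54.0% with a −log10 q of at least 1.3, 59.4% with peaks in all 3 and 32.5% without 6FAE and C6AE. Chosen in replicate 2 the values were 34.8%, 37.0%, 58.9% and 45.6%. For the last setting, the share of all regions was 26.6% for the choice in replicate 1 and 30.4% for that in replicate 2. The other settings here and below are given without a share over all regions, which limits their reading. Without Forskolin the recurring shares were 21.2%, 13.9% and 37.1% for replicate 1, and 22.1%, 18.5% and 40.0% for replicate 2. On the other side, regions chosen with Forskolin had 15.9%, 6.14%, 28.1% and 12.5% for replicate 1. The shares for replicate 2 were 21.7%, 11.9%, 32.4% and 13.3%. Regions chosen without Forskolin in replicate 1 had 22.7%, 31.1% and 40.0% on the other side, above the shares on their own. For replicate 2 the other side had 12.5%, 16.05% and 13.85%. With the q threshold, regions chosen without Forskolin in replicate 1 were found more often on the other side (31.1% against 13.9%), where the sides also differed in their number of enriched peaks. The part of depth, which was lowest at 3346418 tags in C6AE replicate 2, was not tested.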
